A study of Mus musculus with 8 samples.

Results

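The differences described here are those between C/EBPb knockout and wildtype that sorted mammary epithelial cells of both CD29 gates had in common. All 4 knockout (KO) arrays were set against all 4 wildtype (WT) arrays, and a probe set was kept where every KO value lay on the same side of every WT value. Of 45037 probe sets, 1259 (2.8%) met this rule, 669 with the KO arrays lower and 590 with the KO arrays higher. Among the 18194 genes with a probe set of their own, 937 had at least 1 such probe set, 519 with a lower and 420 with a higher one. The study hybridised 8 Affymetrix mouse arrays, 1 per sorted sample, to look for pathways under C/EBPb control in stem and progenitor cells of the gland.

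The 4 groups were WT and KO cells of the LIN-CD24+CD29hi gate (CD29hi below) and of the LIN-CD24hiCD29lo gate (CD29lo below), with 2 biological replicates each. Per the labels the glands came in 2 paired sets of wildtype and C/EBPb-/- mice with 10 mice per group, so a sample pools animals. The deletion is germline, and was thus carried by every cell of the animal and not by the epithelium alone. The sources used here do not give the age, strain or reproductive state of the mice, nor which part of Cebpb was removed. The labels do not say whether both gates were sorted from the same pool of glands. If they were, the 4 arrays of a genotype are not 4 independent samples, and the p-values measure the spread between these arrays. Values are log2 expression as deposited.

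C/EBPb is a leucine zipper transcription factor that binds DNA as a dimer with itself or with its relatives. In the mammary gland it is known for its part in ductal branching, in the growth of the milk-secreting lobules and in the expression of milk protein genes, which also need prolactin signalling through STAT5. CD29 is the integrin chain encoded by Itgb1, and its level separates a basal fraction that holds myoepithelial and stem cells from a luminal fraction.

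The arrays fitted the gates on their labels. The mean over 13 basal markers ran from 11.27 to 11.72 on the CD29hi arrays and from 7.06 to 7.74 on the CD29lo arrays, while 12 luminal markers averaged 9.04 to 9.61 and 11.28 to 11.46. The background of an array was taken as the value that 95% of its 27 Bacillus control probe sets do not exceed, and lay between 3.835 and 4.41. It was highest on KO CD29lo replicate 1, where 64.747% of the probe sets exceeded it, against 68.044% to 71.177% on the other arrays. Of the 10 fibroblast, 9 blood cell, 8 endothelial and 5 adipocyte markers measured, 0 separated the genotypes by the rule above. Over all genes 1.82% were lower and 1.32% higher by 1 probe set per gene. At those shares so few markers can hold 0, so it does not show that the content of these cells was alike. The log2 of the summed fibroblast level ran from 9.68 to 10.76 over the 4 CD29hi arrays. On the CD29lo arrays it was 13.46 and 14.99 for WT against 11.81 and 14.56 for KO, so it followed the gate and varied within CD29lo. In a wider list of fibroblast genes all 18 measured lay below 0 in CD29lo (median -1.26) and 7 did in CD29hi (median 0.44). The summed adipocyte level was highest on KO CD29hi replicate 2 (13, against 11.01 to 12.34 elsewhere). The part of these cells in the results below was not tested. The blood cell markers Itgam and Cd3e were at or below the background on all 8 arrays.

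Few of the shared differences passed the test, and most of the 1259 are descriptions of these arrays. With the gate as a block, limma called 9 probe sets lower in the knockout (0.02% of those tested) and 1 higher (0.00222%) at an adjusted p under 0.05, and 9 of these 10 also met the rule of non-overlap. At an unadjusted p under 0.05 there were 1833 lower (4.07%) and 1500 higher (3.33%). The non-overlapping probe sets make up 1.49% of all probe sets in the lower and 1.31% in the higher direction. All calls rested on a variance model with a trend over expression level: without it limma called 0, with 3232 probe sets at an unadjusted p under 0.05 and an adjusted p of 0.178 for Cebpb. With the gates averaged to 2 against 2 values, Cebpb, Serinc3 and the Trf and Srprb probe set kept their calls (limma adjusted p 0.00944, 0.0427 and 0.0272). Since non-overlap reads the same arrays as the test, it describes a call and does not support it. The called probe sets were those of Cebpb itself, the casein genes Csn1s1, Csn2 and Csn1s2a, the membrane protein gene Serinc3, a probe set annotated to both Trf and Srprb, the proton pump gene Atp6v1c2 and the protease gene Casp1, all of which fell, and Ptms, which rose.

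Cebpb had the smallest p of all probe sets. Its probe set 1418901_at read 11.95 and 12.25 on the WT CD29hi arrays, 11.83 and 12.18 on the WT CD29lo arrays, 8.60 and 9.38 on the KO CD29hi arrays, and 9.23 and 8.89 on the KO CD29lo arrays. The lowest WT array lay 2.45 log2 units above the highest KO array, and the signal stayed above the background on all 4 KO arrays. The log2 fold change was -3.03 ± 0.181 (SE), from 12.05 ± 0.196 (SD, n = 4) to 9.03 ± 0.350 (SD, n = 4), with a limma adjusted p of 0.0005. The other Cebpb probe set, 1427844_a_at, ran from 3.6 to 4.61 in WT and from 2.25 to 3.23 in KO, close to or under the background, and did not pass (limma adjusted p = 0.58). Where the probes lie relative to the deleted part is unknown here, so the residual signal was not assigned to any transcript. The call held whichever array was left out (limma adjusted p at most 0.00926).

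**Figure D1:**
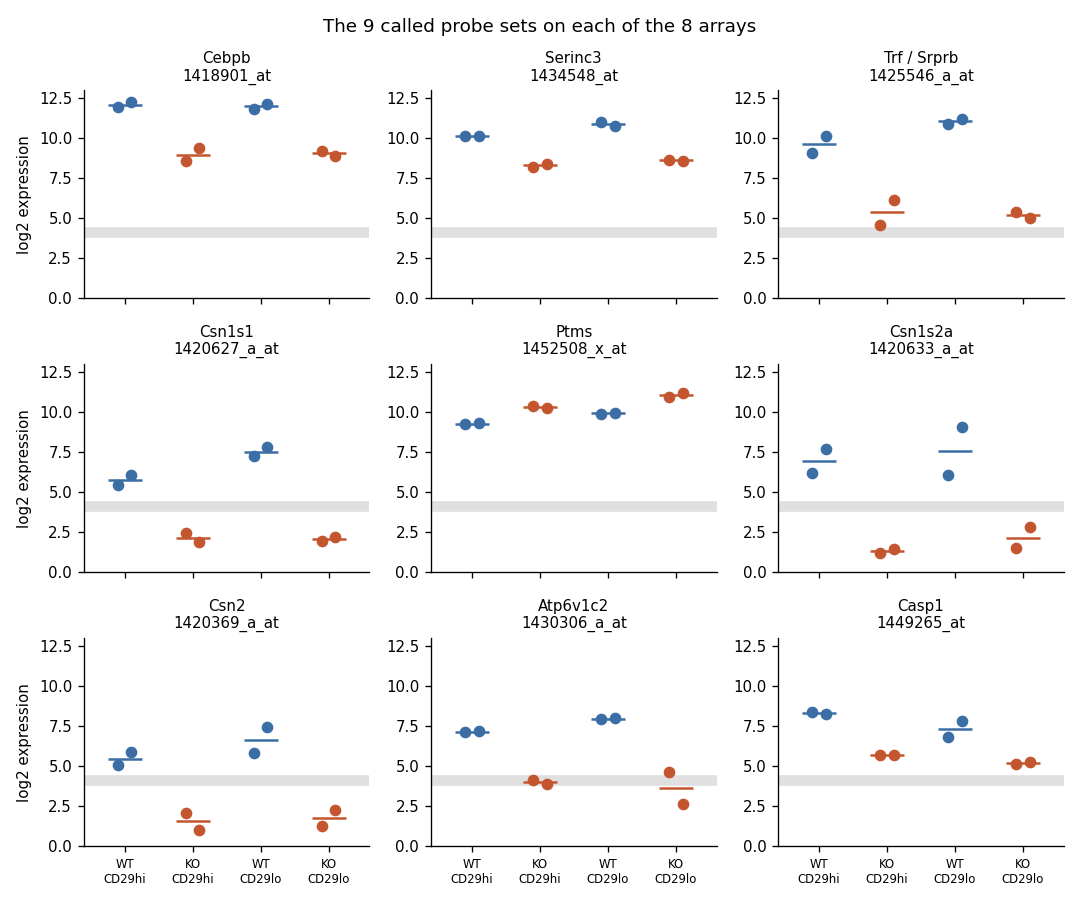
Log2 expression (vertical axis) of the 9 called, non-overlapping probe sets on each of the 8 arrays; points are arrays, short lines are group means of 2 arrays, blue is WT and orange is KO, and the grey band spans the background of the arrays, 3.835 to 4.41. The KO arrays lie below all WT arrays in 8 panels and above them for Ptms, and the KO arrays of the 3 casein genes lie under the band.

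Among the called genes were 3 casein genes, with all KO arrays below the background. Csn1s1 encodes alpha-S1 casein, Csn2 beta casein and Csn1s2a an alpha-S2 casein, which are calcium-binding phosphoproteins that form the micelles of milk. Csn1s1 read 5.43 and 6.10 on the WT CD29hi arrays, 7.27 and 7.82 on the WT CD29lo arrays, 2.45 and 1.89 on the KO CD29hi arrays, and 1.96 and 2.23 on the KO CD29lo arrays. All WT arrays were thus above the background and all KO arrays below it, so that the fold is a lower bound: Csn1s1 was at least 5.91-fold lower in the knockout. The limma adjusted p of 0.0188 is that of the fit on the deposited values, those below the background included, and not of this bound. The same holds for the adjusted p beside every other lower bound in the text. For this bound the mean of the WT arrays is set against the mean background of the KO arrays, over both gates. Such a bound need not hold within each gate.

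Csn2 (1420369_a_at) read 5.05 and 5.91 in WT CD29hi, 5.84 and 7.44 in WT CD29lo, 2.10 and 1.03 in KO CD29hi, and 1.28 and 2.25 in KO CD29lo. Again no KO array reached the background, and Csn2 was at least 3.92-fold lower (limma adjusted p = 0.0383). A further Csn2 probe set, 1420370_s_at, had WT values from 1.81 to 6.09 that overlapped the KO values of 1.61 to 2.41. Csn1s2a (1420633_a_at) read 6.21 and 7.70 in WT CD29hi, 6.07 and 9.09 in WT CD29lo, 1.19 and 1.48 in KO CD29hi, and 1.5 and 2.81 in KO CD29lo. It was at least 9.04-fold lower (limma adjusted p = 0.0383), with WT replicates of a gate that differed by more than the replicates of the knockout did. A separate probe set of Csn1s2a, 1436170_a_at, had WT values of 6.84 to 9.99 and KO values of 0.71 to 3.39, all below the background (at least 16.4-fold lower, limma adjusted p = 0.0802). Its other 3 probe sets overlapped, at 4.17 or less on every array.

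The calls of the casein genes were mostly lost when 1 array was left out, which also lowers the residual degrees of freedom from 5 to 4. In these fits the log2 fold change stayed between -4.84 and -4.23 for Csn1s1, -4.7 and -3.98 for Csn2, and -6.15 and -4.94 for Csn1s2a. That of Csn1s1 was lost without WT CD29hi replicate 2 (limma adjusted p = 0.0991), WT CD29lo replicate 1 (0.12), WT CD29lo replicate 2 (0.0858), KO CD29hi replicate 2 (0.11) or KO CD29lo replicate 2 (0.0663). Csn1s2a kept its call without WT CD29lo replicate 1 (limma adjusted p = 0.0289), and in the 7 other such fits it had an adjusted p of 0.0769 to 0.225. Csn2 lost its call in all 8 (limma adjusted p 0.0872 to 0.226). With values raised to the background the limma adjusted p was 0.0742 for Csn1s1, 0.157 for Csn1s2a and 0.215 for Csn2. In bulk RNA of sorted cells, fewer casein-expressing cells and less casein RNA per cell cannot be told apart.

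The 3 called casein genes lie on chromosome 5, and their promoters were read because the genes moved together. Below are the 250 bases before the start of each gene, 5' to 3' on the gene's strand, from RefSeq sequence of GRCm38.p6, with a match to the STAT5-type palindrome TTCNNNGAA in capitals.
Csn1s1, chr5:87665958-87666207, plus strand: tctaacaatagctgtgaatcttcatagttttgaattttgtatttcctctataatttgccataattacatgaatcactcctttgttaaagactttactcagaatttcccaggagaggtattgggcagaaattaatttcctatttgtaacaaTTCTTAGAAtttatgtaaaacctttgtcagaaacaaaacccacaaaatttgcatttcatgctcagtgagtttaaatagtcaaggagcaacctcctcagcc
Csn2, chr5:87699426-87699675, minus strand: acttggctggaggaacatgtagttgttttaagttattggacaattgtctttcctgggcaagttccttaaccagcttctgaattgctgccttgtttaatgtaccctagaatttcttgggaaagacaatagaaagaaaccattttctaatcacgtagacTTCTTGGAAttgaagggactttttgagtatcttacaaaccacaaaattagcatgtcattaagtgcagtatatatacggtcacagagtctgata
Csn1s2a, chr5:87774200-87774449, plus strand: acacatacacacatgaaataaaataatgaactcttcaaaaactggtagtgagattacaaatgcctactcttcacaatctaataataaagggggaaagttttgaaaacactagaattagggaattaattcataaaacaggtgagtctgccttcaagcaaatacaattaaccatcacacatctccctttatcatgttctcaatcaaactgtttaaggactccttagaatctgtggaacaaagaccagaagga

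The palindrome begins at position -100 relative to the start in Csn1s1 and at -93 in Csn2, and no match to these letters was found in the Csn1s2a window. In all, 4 motifs were searched on both strands, namely TTCNNNGAA, the C/EBP palindrome TTGCGCAA, the looser C/EBP form TTGCNNAA that contains it, and the E2F-type sequence TTTCGCGC. TTCNNNGAA occurred in 6.21% of the 18009 promoters of tested genes, in 6.21% of the promoters of genes with a lower probe set and in 6.64% of those with a higher one. TTGCNNAA occurred in 8.36% of all promoters, 9.60% of those of lower genes and 8.06% of those of higher genes, and TTGCGCAA in 0.211%, 0.565% and 0.474%. Several promoters of a gene count separately here: the 3 TTGCGCAA matches of lower genes belong to 1 gene, which is 0.238% of these genes, beside 0.237% of all genes. TTTCGCGC was found in 0.394% of all promoters, 0.377% of those of lower genes and in 0 of the 422 of higher genes. Among the 8 called single-gene promoters, 2 held TTCNNNGAA, those printed above, and 0 held a C/EBP form. These are letter matches in a short window and are not evidence of binding.

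Outside these 3 genes no gene of the milk protein list met the rule of non-overlap. Of its 16 measured genes, represented by 1 probe set each, 3 were lower without overlap (18.8%, against 1.82% of all genes) and 0 were higher (against 1.32%). Its median difference was -0.39 on the log2 scale, beside -0.03 over all genes, and 12 of 16 genes lay below 0. Kappa casein (Csn3) read 9.36 and 10.25 in WT CD29hi, 11.92 and 11.83 in WT CD29lo, 7.33 and 8.69 in KO CD29hi, and 12.09 and 11.76 in KO CD29lo, so that its difference stood in CD29hi and not in CD29lo. The whey acidic protein gene Wap overlapped between 3.98 and 5.15 (-0.24, limma adjusted p = 0.92), and the alpha-lactalbumin gene Lalba between 3.17 and 4.67 (-0.53, limma adjusted p = 0.82). Some genes overlapped only across the gates, with both KO arrays below both WT arrays in each gate. These were Xdh (-0.94, limma adjusted p = 0.501), Muc1 (-1.36, 0.529, some KO arrays below the background) and Ltf (-1.24, 0.513). Btn1a1 stood at 0.07 by its representative probe set. Its probe set 1419175_a_at gave -2.86 (limma adjusted p = 0.0802), lower in each gate, with 2 of 4 KO arrays above the background. With the filter at the 50th percentile of the probe set means, the 3 casein genes were too dim to enter and the list's median was -0.87, while values raised to the background gave -0.18.

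The prolactin and STAT5 list, which holds the kinase, receptors and feedback genes of the pathway that acts on the caseins, had 0 lower and 2 higher genes of 15 (13.3% higher against 1.32% of all genes), and 0 passed the test. Its median was 0.05. The higher genes were Socs2, a feedback inhibitor of cytokine receptors, and the cyclin gene Ccnd1. Socs2 read 8.01 and 7.70 in WT CD29hi, 7.27 and 8.17 in WT CD29lo, 8.47 and 8.44 in KO CD29hi, and 8.86 and 8.70 in KO CD29lo (0.83 ± 0.238 SE, limma adjusted p = 0.504). The other Socs2 probe sets overlapped, at 0.83, 0.585, 0.573, 0.363 and 0.348. Within CD29lo they gave 0.425, 0.28, 0.175, -0.345 and -0.085, so not every probe set rose in that gate. Ccnd1 (1448698_at) read 10.51 and 10.13 in WT CD29hi, 10.91 and 10.64 in WT CD29lo, 11.36 and 11.03 in KO CD29hi, and 11.11 and 11.08 in KO CD29lo (0.60 ± 0.153 SE, limma adjusted p = 0.486). Its other 2 probe sets gave 1.02 and 0.79 with overlapping arrays. The transcription factor genes Stat5a (0.09) and Stat5b (0.09) and the kinase gene Jak2 (0.01) overlapped, and Elf5 stood at -1.54 with KO CD29hi arrays at 3.99 and 6.94 and KO CD29lo arrays at 10.66 and 9.40.

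Serinc3 had the second smallest p. The gene encodes a membrane protein of the serine incorporator family. Serinc3 (1434548_at) read 10.13 and 10.18 in WT CD29hi, 11.04 and 10.76 in WT CD29lo, 8.22 and 8.40 in KO CD29hi, and 8.67 and 8.60 in KO CD29lo. Every KO array lay at least 1.46 log2 units below every WT array, and the log2 fold change was -2.06 ± 0.150 (SE, limma adjusted p = 0.00177). The call held whichever array was left out (limma adjusted p at most 0.0199). The other 5 Serinc3 probe sets differed less, with log2 fold changes of -0.80, -0.37, -0.36, -0.31 and -0.11, of which that of -0.37 (1455550_x_at, WT 11.69 to 12, KO 11.40 to 11.58) also did not overlap. A single probe set thus carried the 4-fold difference, and the probe sets of this gene disagree on its size.

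Serinc3 lies on the same chromosome as Cebpb, at position -91 when protein-coding genes are counted from Cebpb in the RefSeq order of GRCm38.p6. The called gene Slpi, described below, lies at position -70. By 1 representative probe set per gene, 1 of the 148 measured genes within 100 genes of Cebpb was lower and 1 was higher (0.676% each), against 1.82% and 1.32% of all genes. Within 50 genes on either side 0 of 90 representative probe sets separated, and over the whole chromosome the shares were 1.33% and 1.40%. By any probe set, Nfatc2 (position 8, 2.22), Ttpal (-92, 0.46) and Rims4 (-86, 0.45) were higher and Rtf2 (position 24, -0.71) was lower within the 100 genes, with limma adjusted p from 0.364 to 0.826. What the position of Serinc3 and Slpi has to do with their calls was not tested.

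The probe set 1425546_a_at, which the platform annotation gives to both Trf and Srprb, fell by more than any other non-overlapping probe set with a signal above the background on all 8 arrays. Trf encodes the iron carrier transferrin, which mammary epithelium secretes into milk, and Srprb a subunit of the receptor that docks ribosomes at the endoplasmic reticulum. It read 9.10 and 10.14 in WT CD29hi, 10.91 and 11.23 in WT CD29lo, 4.59 and 6.16 in KO CD29hi, and 5.40 and 5.04 in KO CD29lo. The gap between the genotypes was 2.94 log2 units and the log2 fold change -5.05 ± 0.437 (SE, limma adjusted p = 0.0058). The 3 probe sets annotated to Srprb alone stood at 0.16, -0.07 and 0.15 and overlapped, and no probe set was annotated to Trf alone. The call was lost without WT CD29hi replicate 2 (limma adjusted p = 0.0787).

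Atp6v1c2 fell in both gates. It encodes an isoform of the C subunit of the vacuolar proton pump, which acidifies organelles of the secretory and endocytic routes. Atp6v1c2 read 7.12 and 7.18 in WT CD29hi, 7.93 and 7.99 in WT CD29lo, 4.12 and 3.87 in KO CD29hi, and 4.66 and 2.66 in KO CD29lo. The KO arrays were thus near the background, above it on 2 of 4, and the WT arrays well above it, and the log2 fold change was -3.73 ± 0.451 (SE, limma adjusted p = 0.042). The call held without KO CD29lo replicate 1 (0.05) or KO CD29lo replicate 2 (0.014) and was lost without any of the other 6 arrays (limma adjusted p 0.131 to 0.225). Of the 23 pump subunit genes measured, Atp6v1c2 was the 1 gene whose representative probe set separated (4.35% lower against 1.82% of all genes), and the list's median was -0.13.

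Casp1 also fell. Casp1 encodes the inflammasome protease that processes pro-inflammatory cytokines. The arrays read 8.36 and 8.23 in WT CD29hi, 6.80 and 7.83 in WT CD29lo, 5.71 and 5.73 in KO CD29hi, and 5.12 and 5.27 in KO CD29lo, all above the background. The log2 fold change was -2.35 ± 0.291 (SE, limma adjusted p = 0.0464). The call held without WT CD29lo replicate 1 (0.0459) and was lost without any of the other 7 arrays (limma adjusted p 0.0872 to 0.265). Of 20 caspase and inflammasome genes, Casp1 was the 1 lower gene (5.0% against 1.82% of all genes) and 0 were higher by representative probe set, with a median of -0.02.

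Ptms was the called probe set that rose. Ptms encodes parathymosin, a small acidic nuclear protein. Probe set 1452508_x_at read 9.26 and 9.32 in WT CD29hi, 9.92 and 9.94 in WT CD29lo, 10.38 and 10.26 in KO CD29hi, and 10.98 and 11.22 in KO CD29lo. The KO arrays lay above the WT arrays by at least 0.32 log2 units, and the log2 fold change was 1.10 ± 0.115 (SE, limma adjusted p = 0.0188). The other 2 Ptms probe sets overlapped, at -0.06 and -0.11, so the rise was seen with 1 of 3 probe sets. The call was lost whichever array was left out (limma adjusted p 0.055 to 0.125).

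**Figure D2:**
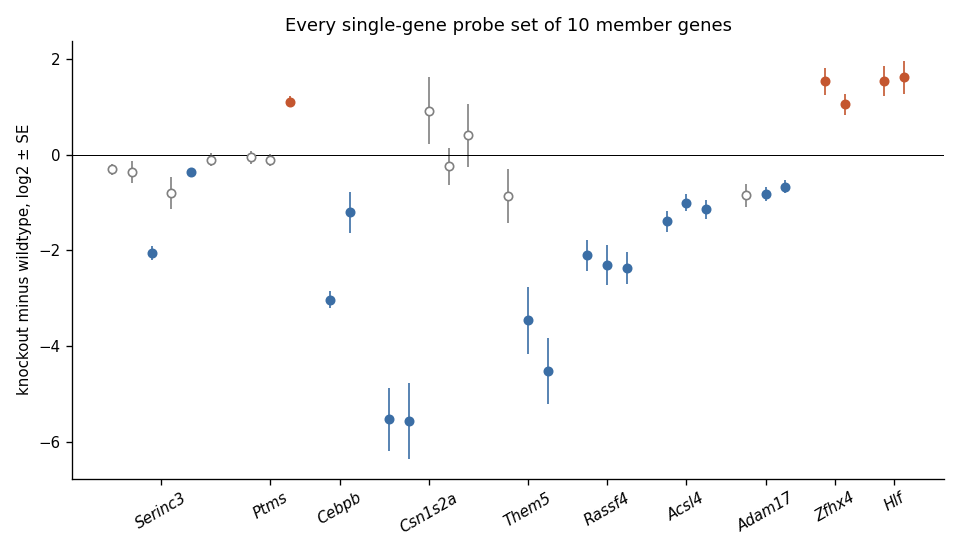
Knockout minus wildtype difference (log2, vertical axis, with SE bars) for every single-gene probe set of 10 genes; filled points are probe sets whose arrays do not overlap (blue lower, orange higher in KO) and open points are those that overlap. All 3 probe sets of Rassf4 and of Acsl4 lie on the same side, whereas Serinc3 and Ptms each have 1 probe set far from the others.

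Some genes met the rule with more than 1 probe set, which is a description, since the rule chose those probe sets. In all, 64 genes had 2 or more non-overlapping probe sets in the same direction, 46 lower and 18 higher, and 2 genes had non-overlapping probe sets in both directions. The genes with a non-overlapping probe set had 1344 further single-gene probe sets that overlapped. Rassf4, a Ras-association domain gene, separated with all 3 of its probe sets. Rassf4 (1444009_at) read 7.97 and 8.11 in WT CD29hi, 7.47 and 8.43 in WT CD29lo, 5.98 and 4.99 in KO CD29hi, and 5.39 and 6.15 in KO CD29lo. Its 3 log2 fold changes were -2.37 ± 0.338, -2.10 ± 0.323 and -2.30 ± 0.413 (SE), close to each other, with limma adjusted p from 0.0802 to 0.21.

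Acsl4, a long-chain acyl-CoA synthetase with a preference for arachidonic acid, separated with all 3 probe sets as well. Acsl4 (1418911_s_at) read 9.54 and 9.72 in WT CD29hi, 9.32 and 9.57 in WT CD29lo, 7.60 and 8.10 in KO CD29hi, and 8.31 and 8.58 in KO CD29lo. Its probe sets gave log2 fold changes of -1.39, -1.0 and -1.14 (limma adjusted p 0.116 to 0.189). Adam17, the protease that sheds growth factors and cleaves Notch receptors, separated with 2 of 3 probe sets. Adam17 (1421858_at) read 10.05 and 10.07 in WT CD29hi, 10.26 and 10.76 in WT CD29lo, 9.01 and 9.30 in KO CD29hi, and 9.69 and 9.85 in KO CD29lo (-0.82 ± 0.149 SE, limma adjusted p = 0.219), and 1421859_at gave -0.67. These differences are small, and in Adam17 the KO CD29lo values came within 0.20 log2 units of the WT values.

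Them5, an acyl-CoA thioesterase of mitochondria, separated with 2 of 3 probe sets. Them5 (1453801_at) read 8.02 and 8.54 in WT CD29hi, 5.54 and 5.34 in WT CD29lo, 1.54 and 2.19 in KO CD29hi, and 2.68 and 3.0 in KO CD29lo. All KO arrays were below the background, and Them5 was at least 6.82-fold lower (limma adjusted p = 0.116). Its WT level differed between the gates by 2.84 log2 units, and the difference between the gates' genotype contrasts had an unadjusted p of 0.000442 but a limma adjusted p of 0.947.

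Mitotic genes lay mostly below their wildtype level. Of 39 measured genes 38 lay below 0, the median log2 fold change was -1.41, and 4 separated without overlap (10.3% against 1.82% of all genes), while 0 were higher and 0 passed the test. The 4 were Kif20b, a kinesin that acts at cytokinesis, the spindle kinesin Kif11, the microtubule-binding protein gene Ckap2 and the centromere protein gene Cenph. The medians within the gates were -2.52 in CD29hi and -0.45 in CD29lo, with 38 and 27 genes below 0, and the difference between the gates was not tested for the list. The mean level of the list was 6.35 and 7.77 in WT CD29hi, 4.95 and 5.36 in WT CD29lo, 4.69 and 4.24 in KO CD29hi, and 4.56 and 4.86 in KO CD29lo. Both KO CD29hi arrays were thus below both WT CD29lo arrays, and the highest value was WT CD29hi replicate 2. The KO and WT CD29lo means lay above the background of 3.835 to 4.41. The part of the background in the smaller difference of CD29lo was not tested.

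Kif20b (1439695_a_at) read 6.99 and 7.69 in WT CD29hi, 6.0 and 6.01 in WT CD29lo, 3.65 and 2.91 in KO CD29hi, and 3.53 and 3.76 in KO CD29lo. No KO array reached the background, and with this probe set Kif20b was at least 5.99-fold lower (limma adjusted p = 0.0665). Its other 3 probe sets overlapped, at -1.12, -0.90 and -0.76, and the second of these stood at 0.87 in CD29lo. Kif11 read 7.56 and 8.34 in WT CD29hi, 5.31 and 6.49 in WT CD29lo, 4.29 and 3.84 in KO CD29hi, and 4.99 and 5.06 in KO CD29lo, so that its genotypes were separated by far less in CD29lo than in CD29hi. Its log2 fold change was -2.38 ± 0.590 (SE, limma adjusted p = 0.464). Averaged over both gates Ckap2 was at least 2.79-fold lower (limma adjusted p = 0.464), with WT CD29lo arrays at 4.16 and 4.88 and KO CD29lo arrays at 3.49 and 3.25. These WT CD29lo values are close to the background, so the bound rests mostly on CD29hi. Cenph read 6.58 and 7.68 in WT CD29hi, 5.12 and 5.57 in WT CD29lo, 3.67 and 2.99 in KO CD29hi, and 4.65 and 4.99 in KO CD29lo (-2.16 ± 0.630 SE, limma adjusted p = 0.504).

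A cell division gene outside this list stood out by several probe sets. Cdca8, a subunit of the chromosomal passenger complex, separated with 2 of 3 probe sets, at -2.16 and -2.14 (limma adjusted p 0.19 and 0.29). Cdca8 (1436847_s_at) read 9.63 and 10.91 in WT CD29hi, 8.81 and 9.34 in WT CD29lo, 7.51 and 7.5 in KO CD29hi, and 6.96 and 8.09 in KO CD29lo. Every KO array of this probe set lay at least 0.72 log2 units below every WT array. The count of 4 mitotic genes depends on single arrays, and leaving one out also loosens the rule. It became 14 when WT CD29lo replicate 1 was left out, 8 for KO CD29hi replicate 1 and 7 for KO CD29lo replicate 2. With the filter at the 50th percentile it was 1.

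DNA replication genes had 4 of 31 members lower without overlap (12.9% against 1.82%) and 0 higher, with a median of -0.37 and 29 genes below 0. Within CD29hi the median was -0.82 with 29 genes below 0, and within CD29lo -0.17 with 17 below 0. The gates were not tested against each other for this list. The 4 lower genes were Lig1 and Fen1, the ligase and flap nuclease that join Okazaki fragments, and the helicase loading genes Mcm4 and Mcm10. Of these 4 genes, 0 passed the test. Fen1 (1436454_x_at) read 9.34 and 10.01 in WT CD29hi, 9.47 and 9.81 in WT CD29lo, 8.62 and 9.19 in KO CD29hi, and 8.75 and 9.06 in KO CD29lo. Its difference was of like size in both gates, -0.77 and -0.74 (limma adjusted p = 0.491 over both). Mcm4 (1436708_x_at) lay between 8.99 and 9.02 on the 4 KO arrays and between 9.24 and 9.80 on the WT arrays (-0.54 ± 0.171 SE, limma adjusted p = 0.523). Lig1 stood at -1.56 ± 0.418 (SE, limma adjusted p = 0.487), with -2.27 in CD29hi. The count was 7 without KO CD29hi replicate 1.

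**Figure D3:**
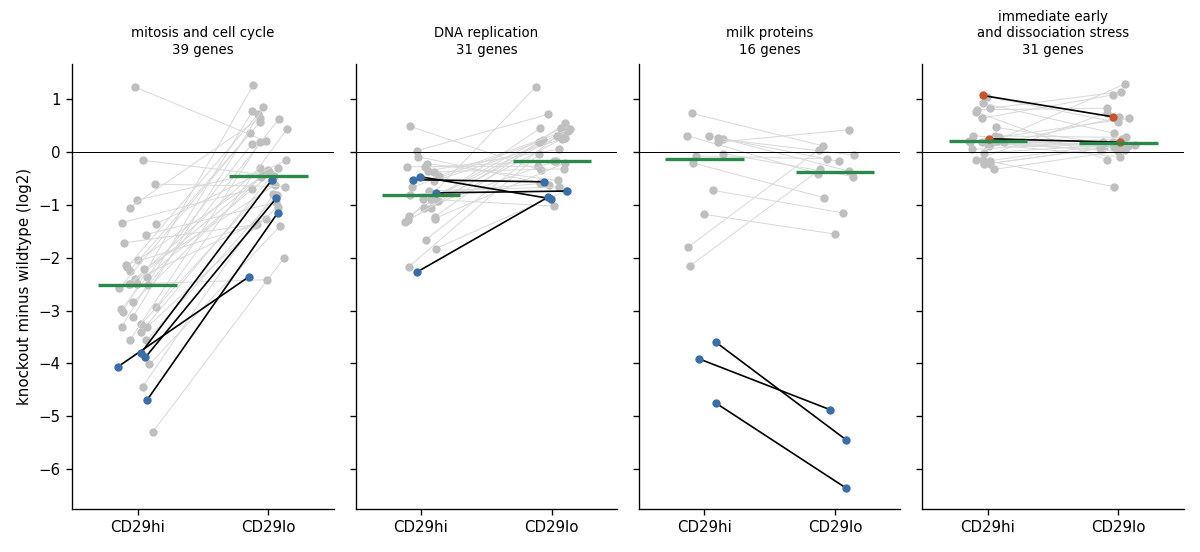
Knockout minus wildtype difference (log2, vertical axis) within CD29hi and within CD29lo for every measured gene of 4 lists; lines join the same gene, green bars are list medians, and genes whose arrays do not overlap are blue (lower in KO) or orange (higher) with black lines. The mitosis median is -2.52 in CD29hi and -0.45 in CD29lo, and the 3 casein genes lie far below the rest of their list in both gates.

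Among the lipid genes, 3 of 30 were lower without overlap (10.0% against 1.82%) and 0 higher, with 0 past the test and a median of -0.14. They were Plin2, a coat protein of lipid droplets, Acly, which makes cytosolic acetyl-CoA, and Insig1, a sterol-sensing regulator. Plin2 read 12.16 and 12.19 in WT CD29hi, 12.12 and 12.60 in WT CD29lo, 10.00 and 10.60 in KO CD29hi, and 11.51 and 11.99 in KO CD29lo (-1.24 ± 0.255 SE, limma adjusted p = 0.297). KO CD29lo replicate 2 came within 0.13 log2 units of the lowest WT array. Insig1 lay between 8.20 and 9.05 in WT and between 7.86 and 8.02 in KO (-0.73 ± 0.213 SE, limma adjusted p = 0.504). Acly separated with 2 probe sets, at -0.49 and -0.39 (limma adjusted p 0.513 and 0.618). The count was 5 without KO CD29hi replicate 1 or without KO CD29hi replicate 2.

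Secreted defence genes had 2 of 34 lower without overlap (5.88% against 1.82% of all genes) and 0 higher, with a median of -0.34. Neither passed the test, and the called gene of this list, Slpi, overlapped. Chil1, a chitinase-like secreted protein gene, read 9.54 and 10.84 in WT CD29hi, 8.84 and 8.94 in WT CD29lo, 6.44 and 7.62 in KO CD29hi, and 7.15 and 7.01 in KO CD29lo. All its KO arrays were at least 1.22 log2 units below its WT arrays (-2.49 ± 0.387 SE, limma adjusted p = 0.116). Saa1, an acute phase protein gene, read 5.29 and 6.85 in WT CD29hi, 7.12 and 8.38 in WT CD29lo, 4.09 and 3.79 in KO CD29hi, and 4.06 and 4.87 in KO CD29lo, with KO CD29hi replicate 2 and KO CD29lo replicate 1 below the background. Its fitted difference of -2.71 ± 0.473 (SE, limma adjusted p = 0.191) therefore rests in part on values not above the background, and its other probe set overlapped. The Saa1 promoter window, chr7:46742981-46743230 on the minus strand of GRCm38.p6, holds the looser C/EBP form as TTGCACAA, at position -182 from the start. Among the other named genes whose window was read, Fzd1 (-84) and a promoter of Fen1 (-192) hold it on the opposite strand. Not every named gene had a window, and Per2, Socs2 and Smad4 are among those without. Il1rn, which encodes an antagonist of the interleukin receptor, lay on the other side with 1 of 3 probe sets: 3.04 to 5.58 in WT and 6.04 to 8.23 in KO (2.35 ± 0.604 SE, limma adjusted p = 0.486).

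Slpi, a secreted protease inhibitor, was called but did not meet the rule. Slpi read 12 and 11.81 in WT CD29hi, 8.99 and 8.60 in WT CD29lo, 8.90 and 8.65 in KO CD29hi, and 4.99 and 3.21 in KO CD29lo. Within each gate the KO arrays lay below the WT arrays, but the KO CD29hi arrays overlapped the WT CD29lo arrays because its WT level differed by 3.11 log2 units between the gates. Its log2 fold change was -3.91 ± 0.414 (SE, limma adjusted p = 0.0188), and that call held without KO CD29lo replicate 1 (0.0478) or KO CD29lo replicate 2 (0.00274) and was lost without any of the other 6 arrays (limma adjusted p 0.0816 to 0.12). The mitotic gene Dlgap5, the milk fat globule gene Btn1a1 (1419175_a_at) and the Golgi gene Golim4 (1428875_at) were left out of the rule in the same way, at -3.03, -2.86 and -1.09. A dimmer Golim4 probe set, 1459045_at, did meet it, at -1.88 with all KO arrays below the background (limma adjusted p = 0.486). Asking for separation within each gate alone would keep 1773 lower and 1684 higher probe sets. The rule therefore favours genes of like level in both gates: the median WT difference between the gates was 0.24 log2 units in the 1259 probe sets and 0.475 in all. Just inside it, at a gap of 0.01, were among others the desmosome gene Dsg2 (1439476_at, WT up to 10.31 and KO from 10.32) and the vesicle fusion gene Vamp8 (WT from 11.53 and KO up to 11.52).

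Notch pathway genes had 3 of 28 lower without overlap (10.7% against 1.82%) and 0 higher, with a median of 0.04 and 0 past the test. Beside Adam17 these were the receptor gene Notch2 and Hes6, a bHLH factor. Notch2 (1455556_at) lay between 11.40 and 11.66 on the WT arrays and between 10.87 and 11.30 on the KO arrays (-0.44 ± 0.090 SE, limma adjusted p = 0.297), while its other probe set overlapped at -0.34. Hes6 read 8.22 and 9.21 in WT CD29hi, 8.18 and 8.59 in WT CD29lo, 6.29 and 6.91 in KO CD29hi, and 7.54 and 7.65 in KO CD29lo (-1.45 ± 0.339 SE, limma adjusted p = 0.422). The list did not lean to either side as a whole, since 13 of its 28 genes lay below 0.

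Of 44 Wnt pathway genes 1 was lower without overlap, the receptor gene Fzd1, and 0 were higher, with a median of -0.11. That share of 2.27% is close to the 1.82% of all genes. Fzd1 read 9.73 and 10.09 in WT CD29hi, 9.09 and 9.80 in WT CD29lo, 8.89 and 9.04 in KO CD29hi, and 8.07 and 8.71 in KO CD29lo (-1.0 ± 0.211 SE, limma adjusted p = 0.314), and its other probe set overlapped at -0.37. The secreted inhibitor gene Sfrp1 separated with 1 of 5 probe sets, from 5.13 to 6.37 in WT and from 3.62 to 5.0 in KO (-1.47 ± 0.419 SE, limma adjusted p = 0.501). Wif1, another secreted Wnt inhibitor, is not in this list and not in its share, and was named by its p. Wif1 read 7.60 and 8.92 in WT CD29hi, 3.61 and 4.03 in WT CD29lo, 1.05 and 0.67 in KO CD29hi, and 0 and 0.38 in KO CD29lo. In CD29lo its WT arrays were themselves close to the background or below it, so the separation above background is that of CD29hi. Averaged over both gates the gene was at least 3.86-fold lower (limma adjusted p = 0.0665). That bound does not hold within CD29lo. In the TGF-beta list of 30 genes 1 was higher and 1 lower (3.33% each, against 1.32% and 1.82% of all genes). The inhibitor Smad7 was higher (0.64 ± 0.197 SE, limma adjusted p = 0.522), and its other probe set overlapped at 0.468. The mediator Smad4 was lower (-0.12 ± 0.080 SE, limma adjusted p = 0.801) by a gap of only 0.01 log2 units. Its other probe sets overlapped at -0.095 and -0.085.

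**Figure D4:**
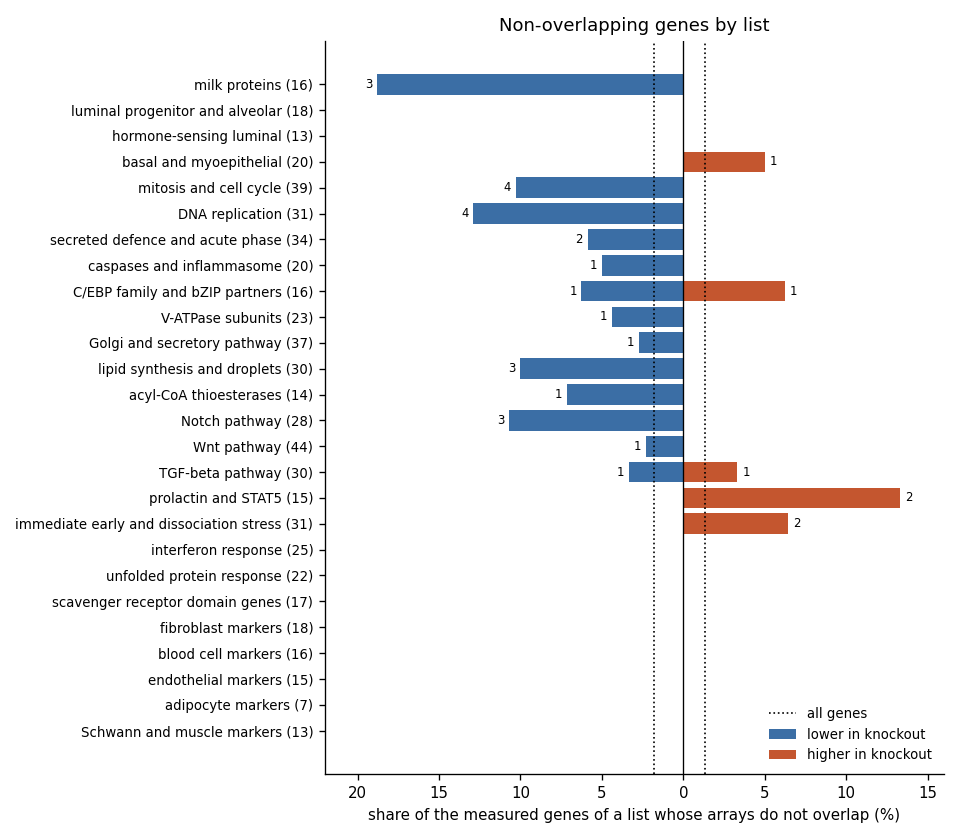
Share of the measured genes of each of 26 lists (number in brackets, 1 probe set per gene) whose KO and WT arrays do not overlap, in percent, lower in KO to the left in blue and higher to the right in orange, with the number of genes at the bar; dotted lines mark the shares over all genes, 1.82% lower and 1.32% higher. Milk proteins reach 18.8%, DNA replication 12.9%, Notch 10.7% and mitosis 10.3% on the lower side, and these bars stand for 3 or 4 genes each.

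In the list of C/EBP relatives and leucine zipper partners, 1 of 16 genes was lower, Cebpb itself, and 1 was higher, Hlf (6.25% each, against 1.82% and 1.32% of all genes), with a median of 0.04. The relatives Cebpa (0.09) and Cebpd (-0.15) overlapped. Cebpg separated with 1 of 3 probe sets, from 8.18 to 8.52 in WT and from 8.61 to 9.37 in KO (0.67 ± 0.210 SE, limma adjusted p = 0.522), while the other 2 gave 0.10 and 0.09. Hlf, a zipper factor with a circadian rhythm, was higher with both probe sets. Hlf (1434735_at) read 8.06 and 8.60 in WT CD29hi, 8.07 and 7.18 in WT CD29lo, 9.60 and 9.49 in KO CD29hi, and 10.13 and 8.83 in KO CD29lo (1.54 ± 0.318 SE, limma adjusted p = 0.308), and 1434736_at gave 1.62. Its relatives Dbp (1.00, limma adjusted p = 0.231) and Tef (0.63, limma adjusted p = 0.487) were above 0 with overlapping arrays.

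The clock gene Per2 was also among the higher genes. Per2 read 6.54 and 6.67 in WT CD29hi, 7.68 and 6.67 in WT CD29lo, 7.82 and 7.80 in KO CD29hi, and 8.93 and 8.63 in KO CD29lo (1.41 ± 0.262 SE, limma adjusted p = 0.229). The lowest KO array exceeded the highest WT array by 0.12 log2 units. Per2 probe sets 1417603_at and 1457350_at overlapped, at 1.49 and 0.46, the latter with -0.515 in CD29hi. Jdp2, a repressive partner of Jun, read 9.61 and 9.68 in WT CD29hi, 8.95 and 9.71 in WT CD29lo, 10.65 and 10.90 in KO CD29hi, and 9.90 and 10.33 in KO CD29lo (0.96 ± 0.189 SE, limma adjusted p = 0.272).

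Immediate early and dissociation stress genes had 2 of 31 higher without overlap (6.45% against 1.32%), 0 lower and 0 past the test, with a median of 0.20 and 4 genes below 0. Jun lay between 12.24 and 12.46 in WT and between 12.50 and 12.63 in KO, a small but non-overlapping difference (0.22 ± 0.060 SE, limma adjusted p = 0.487). Dusp5, a phosphatase induced by growth factor signalling, read 10.07 and 9.26 in WT CD29hi, 10.04 and 9.85 in WT CD29lo, 10.77 and 10.71 in KO CD29hi, and 11 and 10.23 in KO CD29lo (0.87 ± 0.216 SE, limma adjusted p = 0.464). The mean level of this list was 10.28 to 10.64 on the WT arrays and 10.57 to 10.91 on the KO arrays. Its part in the other differences was not tested. Leaving out WT CD29lo replicate 2 gave a count of 5, and leaving out WT CD29hi replicate 2 or KO CD29lo replicate 2 a count of 4.

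The other higher genes of smallest p were of varied function, and none of them passed the test. Fam167a read 7.0 and 6.50 in WT CD29hi, 6.27 and 5.70 in WT CD29lo, 8.83 and 8.94 in KO CD29hi, and 8.74 and 7.69 in KO CD29lo. Its difference was nearly the same in both gates, 2.14 and 2.23, and 2.18 ± 0.284 (SE) over both (limma adjusted p = 0.0651). Sprr1a, a precursor of the cornified envelope of squamous epithelia, read 6.65 and 6.83 in WT CD29hi, 7.43 and 7.61 in WT CD29lo, 8.27 and 9.33 in KO CD29hi, and 9.48 and 10.98 in KO CD29lo. Its KO arrays were all higher, with a wider spread than its WT arrays (2.39 ± 0.350 SE, limma adjusted p = 0.0917).

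Sox21, a transcription factor gene, was above the background on all 4 KO arrays and on 1 WT array. Sox21 (1437059_at) read 4.28 and 3.80 in WT CD29hi, 3.06 and 2.40 in WT CD29lo, 6.56 and 6.17 in KO CD29hi, and 5.49 and 4.49 in KO CD29lo (2.29 ± 0.376 SE, limma adjusted p = 0.147), while a separate probe set overlapped at 0.13. Zfhx4, a zinc finger and homeobox factor gene, was higher with 2 probe sets, at 1.53 and 1.05 (limma adjusted p 0.229 and 0.32). Zfhx4 (1421433_at) read 5.45 and 6.01 in WT CD29hi, 5.93 and 6.16 in WT CD29lo, 7.55 and 7.58 in KO CD29hi, and 7.57 and 6.95 in KO CD29lo. The remaining genes of this group were the extracellular matrix gene Papln (1.63), the neurotrophic factor co-receptor gene Gfra2 (2.10), the cathepsin gene Ctsj (2.11), the myosin phosphatase partner Mprip (0.74) and Prr5l (1.12), with limma adjusted p from 0.231 to 0.296. Of these, Gfra2 and Papln barely separated, by 0.02 and 0.05 log2 units. Further probe sets of Mprip (0.065), Prr5l (0.84 and 0.81) and Gfra2 (0.30 to 1.96) overlapped.

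Probe sets without a gene name made up 13% of the lower and 23.22% of the higher group, beside 20.34% of all probe sets. The higher group was also dimmer, with a median of the mean level of 4.69, against 6.32 in the lower group and 5.51 in all. Of the 1259 probe sets, 880 had all 4 arrays of at least 1 genotype above the background (516 lower and 364 higher), and in 285 no group of 2 arrays was above it. The unnamed probe set 1431214_at read 8.27 and 7.61 in WT CD29hi, 7.63 and 7.95 in WT CD29lo, 9.28 and 9.11 in KO CD29hi, and 9.43 and 9.46 in KO CD29lo (1.46 ± 0.204 SE, limma adjusted p = 0.0802). Another, 1431213_a_at, was higher by 1.11 ± 0.177 (SE, limma adjusted p = 0.134), and 1426188_s_at was lower, from 7.19 to 9.13 in WT and from 5.46 to 7.13 in KO (-1.81 ± 0.308 SE, limma adjusted p = 0.184). The probe set 1430731_at, annotated to Gm11937, Gm11938 and Krtap2-4, separated by 1.81 log2 units with all 8 values under the background, at most 3.15, and is not read as expression.

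By size, the median of the absolute log2 fold change was 0.85 in the 1259 probe sets and 0.27 in all, a difference that the rule itself creates. More than 2-fold were 258 lower and 251 higher probe sets, and more than 8-fold were 15, all of them lower. A gap of more than 1 log2 unit between the genotypes was found in 25 probe sets, 20 lower and 5 higher, and the median gap was 0.13. The rule asks for the same direction in both gates and not for the same size: 619 of the 1259 had the larger difference in CD29lo. The test of the difference between the gates called 0 of 45037 probe sets (0.0%) by limma, with 2356 (5.23%) at an unadjusted p under 0.05, and 34 of these were among the 1259. Its smallest adjusted p was 0.947, which does not show that the gates respond alike.

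**Figure D5:**
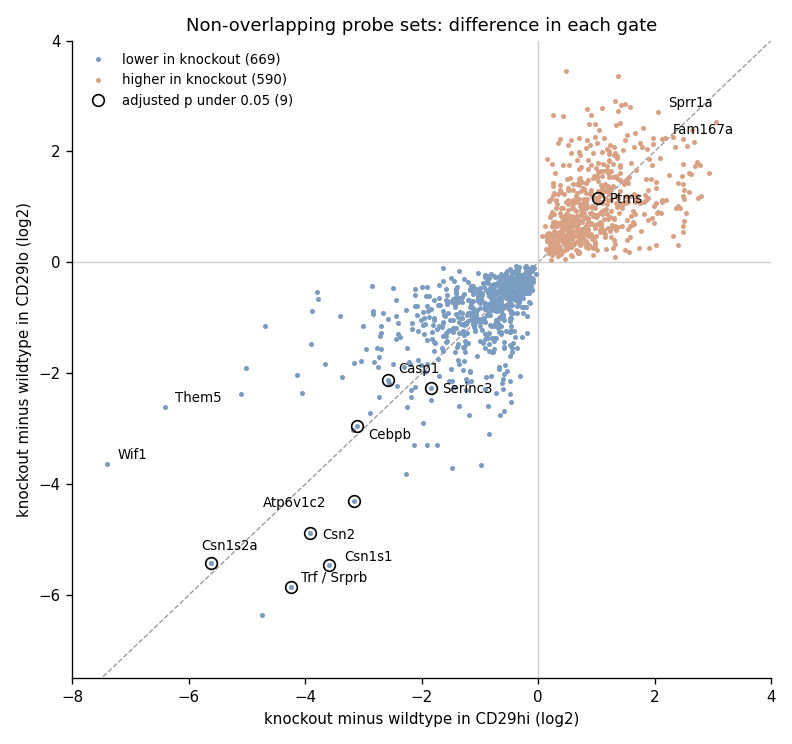
Knockout minus wildtype difference (log2) in CD29hi (horizontal axis) and in CD29lo (vertical axis) for the 669 lower (blue) and 590 higher (orange) probe sets whose arrays do not overlap; the dashed line marks equal differences and black rings mark the 9 called probe sets. Cebpb (-3.11 in CD29hi and -2.95 in CD29lo) and Ptms (1.03 and 1.17) lie near the dashed line; Wif1, Them5 and the casein genes have all KO arrays below the background, so their distance from the line has no exact size.

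Lists of cell identity and of other responses held few or no non-overlapping genes. Over all genes the shares were 1.82% lower and 1.32% higher, at which lists this short can hold 0. Luminal progenitor and alveolar genes had 0 of 18, hormone-sensing luminal genes 0 of 13, interferon response genes 0 of 25, unfolded protein response genes 0 of 22 and scavenger receptor domain genes 0 of 17, in either direction. Basal and myoepithelial genes had 1 of 20 (5.0% higher against 1.32% of all genes). It was Cav1, higher by 0.54 ± 0.142 (SE, limma adjusted p = 0.486), with most of the difference in CD29lo (0.86 against 0.23). Golgi and secretory genes had 1 of 37 lower by representative probe set, the golgin gene Golga1 (-0.83 ± 0.278 SE, limma adjusted p = 0.561), a share of 2.70% that is close to the background of 1.82%. By any probe set 3 of the 37 were lower, beside 519 of all 18194 genes, with Golim4 and Golgb1 added. The luminal progenitor list had a median of -0.57 in CD29hi and of 0.34 in CD29lo, with mean levels of 8.20 and 8.14 in WT CD29hi against 6.92 and 8.05 in KO CD29hi. The lower mean in CD29hi was thus that of 1 array, KO CD29hi replicate 1, and the gates were not tested against each other for this list.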

How the data were processed

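Expression was measured on 8 Affymetrix mouse arrays of FACS-sorted mammary epithelial cells, 2 per group. Per the labels' protocols, RNA was isolated with the Arcturus PicoPure kit, amplified with a NuGEN FFPE kit and labelled as biotinylated cRNA. The values are those the authors deposited, 1 log2 value per probe set and array, floored at 0. Their normalization is not given in the sources used here. Raw scans were not used. The number of arrays limits the precision.

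Of 45101 probe sets, 64 array controls were left out. The platform annotation, of 2016, gives 34945 of the others 1 gene, 932 several and 9160 none, and 34741 gene IDs matched RefSeq. All 45037 were fitted with limma 3.58.1 in R 4.3.3 (gate and genotype, eBayes with a trend, 5 residual and 5.08 prior degrees of freedom, two-sided, Benjamini-Hochberg), without a filter. The difference between the gates came from a fit on the 4 groups. The fit was tested on simulated data. Non-overlap counts ties as overlap. A fold is a lower bound ("at least") where all 4 arrays of a genotype are at or below the background. The adjusted p beside such a fold is from the fit on the deposited values.

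The rule, the 26 gene lists (609 genes, 569 measured) and the named genes were chosen with earlier results of these data known, so lists are described by counts and medians. A list takes the probe set of highest mean per gene. Named are Cebpb, called non-overlapping probe sets (up to 15 per direction), filled to 12 per direction by smallest p, 6 without a single gene, 3 per list, and 8 genes with several such probe sets. The text gives a selection of these, and values of other list genes it mentions were chosen after they were seen. The labels do not say that a replicate number marks a paired set, and deviations from the group means correlated from -0.04 to 0.407 (over 0.1 in 3 of 6 pairs of groups), so the number was not used as a block, and whether it pairs the arrays is unsettled. Alternatives were quantile normalization, filters at the 25th and 50th percentile, values raised to the background, 1 probe set per gene, other variance models and designs, and leaving out each array.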

Additional observations from a re-analysis of the deposited data

How the results depend on the processing

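The count of 9 lower calls was 5 with values raised to the background, 0 without a trend (3232 probe sets at an unadjusted p under 0.05) and 3 with the mean of both gates per replicate number, and ran from 2 to 7 when 1 array was left out. The single higher call became 2 with array weights or with gland pools taken as a random block, 3 with the replicate block, and 0 without a trend or with the mean of both gates, with 0 to 1 when 1 array was left out. With the replicate block 13 probe sets were called in all, Casp1 lost its call (limma adjusted p = 0.051), and Sprr1a, Fam167a, Btn1a1 and a further Csn1s2a probe set gained one. The mean of both gates kept Cebpb, Serinc3 and the Trf and Srprb probe set. Values raised to the background ended the calls of Csn1s1 (limma adjusted p = 0.0742), Csn1s2a (0.157), Csn2 (0.215) and Casp1 (0.0605), the 4-group design those of Csn1s2a (0.0735), Csn2 (0.0606), Atp6v1c2 (0.0586) and Casp1 (0.0762), and quantile normalization that of Atp6v1c2 (0.0562). Without a trend Cebpb had an adjusted p of 0.178. The cause of these shifts was not tested.

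Non-overlapping probe sets numbered 382 lower and 221 higher among the brighter probe sets past the 50th percentile, 392 and 286 when required to lie above the background on every array, and 1773 and 1684 with separation within each gate. When 1 array was left out, which loosens the rule by construction, there were 1079 to 1501 lower and 987 to 1324 higher. The difference between the gates gave 0 to 1 calls when 1 array was left out (1 without KO CD29hi replicate 2 or either KO CD29lo array). In all, 2 named probe sets that did not pass changed sign with values raised to the background, Cebpb 1427844_a_at (0.014) and Atp6v1h 1447659_x_at (0.186). Over all alternatives the 73 named probe sets were unchanged in direction and call status in 1322 comparisons, lost the call in 67 and gained it in 15. Most of the 73 had no call to lose, and the 1322 include those that stayed uncalled. That number therefore does not measure how stable the calls were. All 67 losses fell on the called, non-overlapping probe sets. Fam167a, Kif20b and Wif1 gained it with array weights (limma adjusted p = 0.0464 each).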
